A study of Drosophila melanogaster with 7 samples.

Results

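Yorkie is the transcriptional co-activator on which the Hippo pathway of Drosophila acts, and 8 genes of its circuit were followed here in wing imaginal discs: yki itself, its DNA-binding partner sd, the cofactor genes Tgi, mask and Wbp2, and the growth targets Diap1, Myc and Rae1. They were taken by gene symbol from a table of 17208 genes, which held all 8, and all 8 were among the 9294 genes with enough counts to be tested. The table covers 7 RNA sequencing libraries from third-instar larvae of Drosophila melanogaster, 4 from discs of the ds38k mutant and 3 from wild-type (WT) discs. The column names of the WT libraries give the stock w1118 with a tag, csvd111, whose meaning the sources used here do not give. ds38k is an allele of dachsous (ds), which encodes an atypical cadherin that binds the cadherin Fat; the mutation was carried by the whole larva. The labels do not say that replicates came from separate animals or dissections, so the p-values reflect the spread among these libraries alone, and that spread may be technical. In such bulk samples, fewer cells of a type and less RNA per cell cannot be told apart.

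Yorkie has no DNA-binding domain and reaches its target genes through partners, above all Scalloped (sd), a TEAD-family protein. The Hippo and Warts kinases phosphorylate Yorkie and keep it out of the nucleus, and Fat and Dachsous act upstream of them, so that loss of either cadherin is known to cause overgrowth of the wing disc. Tgi (Tondu-domain-containing growth inhibitor) competes with Yorkie for Scalloped and holds target genes in a repressed state, Mask is a large ankyrin-repeat and KH-domain protein that Yorkie needs as a cofactor, and Wbp2 binds the WW domains of Yorkie and promotes its activity. Diap1 encodes an inhibitor of caspases, Myc a transcription factor that drives ribosome production and cell growth, and Rae1 an mRNA export factor and mitotic regulator. The comparison of genotypes asked how these transcripts differ between ds38k and WT discs. Genotype and the composition of the libraries, described next, differed together, and the stock background may differ too. Their parts in any difference cannot be told apart here.

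The total count was 25192527 to 31141974 per ds38k library and 21438604 to 31718937 per WT library. Transcripts of ds, which check the labels, averaged 201 ± 29.2 counts per 1000000 counts (CPM, scaled by TMM factors; SD, n = 4) in ds38k discs and 1555 ± 139.8 CPM (SD, n = 3) in WT discs. That is a log2 fold change of -2.95 ± 0.14, or -1.19 ± 0.08 once the trend described next is taken out. As a check of the labels this is weak. The decile of protein-coding genes with the longest transcripts, to which ds belongs, had a median of -1.60. Some other genes fell by more than ds after the correction, such as trr at -2.64. The libraries also differed in composition: transcripts of at least 5000 bases took 4.34 to 4.91% of the counts in ds38k and 17.3 to 19.2% in WT, and ribosomal RNA took 11.4 to 15.2% in ds38k and 0.839 to 1.50% in WT. Fold change and transcript length had a Spearman rho of -0.60 across 8598 protein-coding genes, a description since genes are not replicates. Each gene is therefore given both as scaled counts and with the fitted trend along transcript length removed, after which a rho of -0.14 remained. Replicate 4 of ds38k stood apart: 1018 tested genes lay over 3-fold from the mean of the other ds38k libraries, against 215 to 345 for replicates 1 to 3, and its mean correlation with them was 0.926, against 0.960 to 0.964. Markers of tissues in or beside the disc differed as well. All 6 fat body markers were called higher in ds38k, with a summed level of 849, 2765, 835 and 48.5 CPM of the total count in ds38k replicates 1 to 4 and 13.97 to 25.7 CPM in WT. In replicate 4 not every one was above WT, as Lsp1beta had 3.28 CPM there and 6.48 CPM in WT replicate 1. The 10 wing epithelium markers, 6 of them lower and 1 higher, summed to 775 to 1220 CPM in ds38k and 2118 to 2751 CPM in WT. Myoblast markers (2 of 6 lower and 2 higher) summed to 169 to 197 CPM in ds38k and 254 to 306 CPM in WT. Of 5 tracheal markers 4 were lower and 0 higher, with sums of 1551 to 1849 CPM in ds38k and 3786 to 4819 CPM in WT. Hemocyte markers (1 of 5 lower) summed to 9.63 to 45.7 CPM in ds38k and 39.9 to 97.9 CPM in WT, and neuronal and glial markers, of which 1 of 4 could be tested and was lower, to 14.6 to 33.6 CPM in ds38k and 40.8 to 61.8 CPM in WT. Haltere and leg disc markers (2 of 5 lower) summed to 131 to 234 CPM in ds38k and 368 to 540 CPM in WT. Salivary gland markers (2 of 5 higher) summed to 0.289 to 1109 CPM in ds38k and 0.0315 to 12.0 CPM in WT. These marker values were not corrected for the length trend, and the part of these differences in the results was not tested.

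Of the 8 genes, mask, sd and Wbp2 fell and Rae1 rose in ds38k discs at an adjusted p under 0.05, while yki, Tgi, Diap1 and Myc did not pass. With the length trend removed, mask and Wbp2 fell and Rae1 and Myc rose. Thus 3 of the genes, mask, Wbp2 and Rae1, were called in 1 direction both ways. Of all tested genes 65.0% were called, 34.2% as higher and 30.8% as lower, and with the length trend removed 46.7% were called, 27.6% as higher and 19.1% as lower. The 4 of 8 called lay below the background share before the correction and close to it after, so neither count is a result about the 8 genes as a set. Scaling moved the balance of all calls: 52.7% of calls were higher with TMM factors, 63.9% with upper-quartile factors and 41.4% with the library totals, and under the same 3 scalings the median over all genes lay at 0.07, 0.33 and -0.16 (log2).

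**Figure D1:**
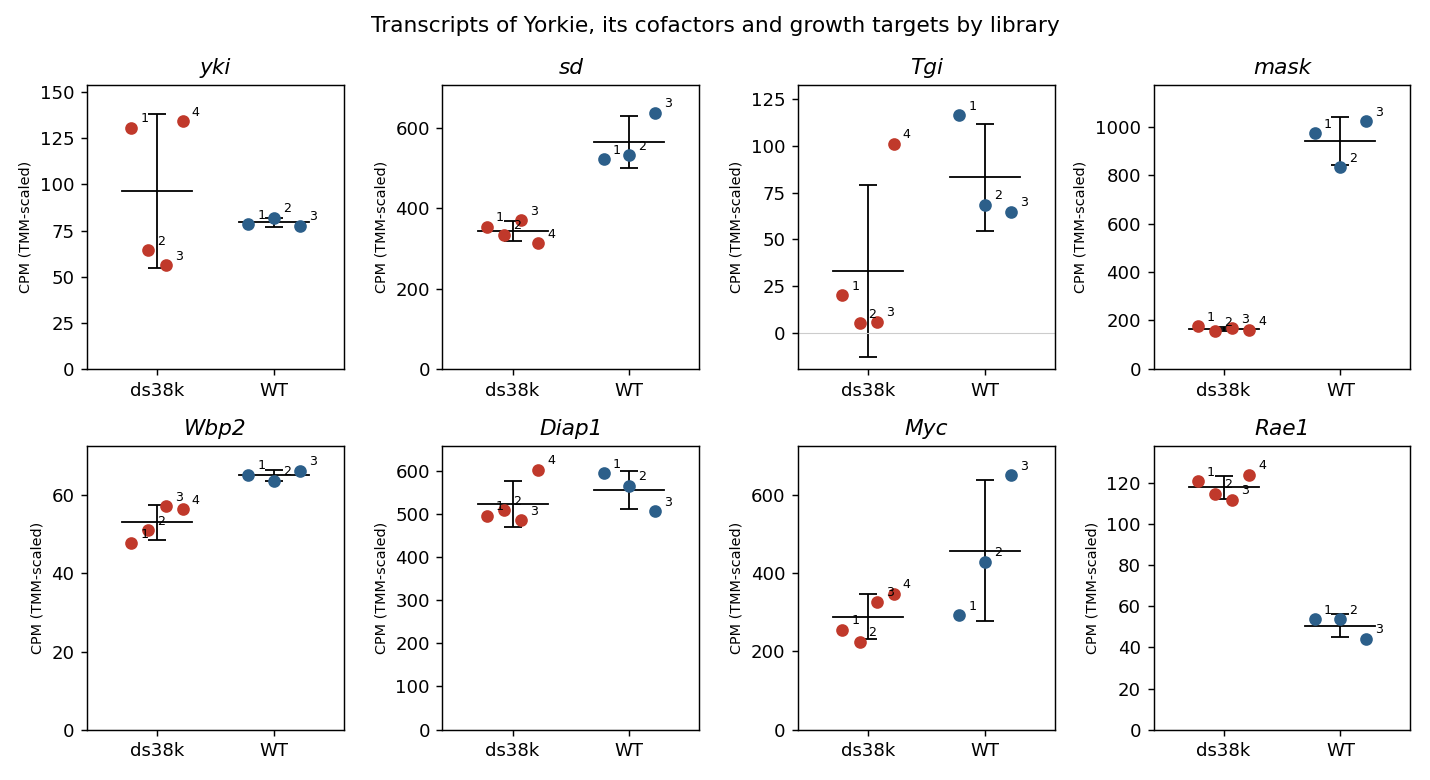
Transcript levels in TMM-scaled CPM (vertical axes, linear) of the 8 genes in ds38k and WT discs; each point is a library marked with its replicate number, and bars give the mean ± SD. The mask, sd and Rae1 libraries of the genotypes lie apart, whereas the ds38k libraries of yki split into 131 and 134 CPM against 64.5 and 56.1 CPM, and replicate 4 of ds38k lies at 101 CPM for Tgi.

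The gene yki (FBgn0034970; dm6 2R:24065975-24068485, minus strand, 4 annotated transcripts of 1369 to 1525 bases) had 131, 64.5, 56.1 and 134 CPM in ds38k replicates 1 to 4, against 78.6, 82.1 and 77.6 CPM in WT replicates 1 to 3. The ds38k libraries fell on either side of the narrow WT range, with replicates 1 and 4 above it and replicates 2 and 3 below. The log2 fold change was 0.28 ± 0.33 (SE; edgeR quasi-likelihood test, adjusted p = 0.475), with a 95% interval of -0.49 to 1.05, and -0.03 ± 0.34 (edgeR adjusted p = 0.939) with the length trend removed. The sign thus turned with that correction, and neither value passed the test. The spread itself was unlike that of WT: the SD of log2 CPM was 0.66 over ds38k libraries, where 18.5% of tested genes had a larger one, and 0.042 over WT libraries, where 95.3% did. The genes whose levels ran most like yki over the 7 libraries were CG13551, Nup35 and U2af38, with Pearson r of 0.988, 0.987 and 0.987. U2af38, which encodes the small subunit of the splicing factor U2AF, had 186, 113, 95.3 and 189 CPM in ds38k and 119, 129 and 114 CPM in WT, which is the same split of replicates. These correlations were the highest among 6569 genes and rest on libraries that share depth and composition.

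Scalloped binds DNA for Yorkie and, with Vestigial, specifies the wing. Its gene sd (FBgn0003345; X:15804370-15827682, plus strand) had 354, 335, 371 and 313 CPM in ds38k, against 523, 533 and 639 CPM in WT. All ds38k libraries lay below all WT libraries, as the ranges of 66.4% of tested genes also did not overlap. The fold change was 1.65-fold, with a log2 value of -0.72 ± 0.10 (SE; edgeR adjusted p = 6.5e-04). With the length trend removed the libraries overlapped, at 429, 430, 444 and 353 length-adjusted CPM in ds38k and 418, 422 and 484 in WT, and the corrected log2 value was -0.09 ± 0.11 (edgeR adjusted p = 0.508). The gene has 22 annotated transcripts of 2527 to 6005 bases, and the corrected value depended on which was taken. It was 0.59 (edgeR adjusted p = 0.0030) with the longest and -0.38 (edgeR adjusted p = 0.0217) with the shortest, so no direction can be given for sd once length is considered. The partner gene vg had 43.5 ± 18.2 CPM (SD, n = 4) in ds38k and 101 ± 22.2 CPM (SD, n = 3) in WT, and its log2 fold change of -1.21 ± 0.31 was called before but not after the correction (-0.39 ± 0.26, edgeR adjusted p = 0.261).

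The level of Tgi (FBgn0036373; 3L:13486797-13502492, plus strand, 2 transcripts of 1904 and 2045 bases), the repressive partner of Scalloped, was decided by 1 library. It was 20.4, 5.25, 6.07 and 101 CPM in ds38k replicates 1 to 4, against 116, 68.6 and 64.9 CPM in WT replicates 1 to 3. Replicates 1 to 3 of ds38k were below every WT library, and replicate 4 was within the WT range. Over all 7 libraries the log2 fold change was -1.32 ± 0.99 (SE; edgeR adjusted p = 0.27). Without ds38k replicate 4 it was -2.97 ± 0.55 (edgeR adjusted p = 0.00232), and -3.09 (edgeR adjusted p = 0.00316) with the length trend removed as well. The underlying counts were 545, 125, 148 and 2770 in ds38k and 2728, 2408 and 1877 in WT, so these values do not rest on low counts. Within ds38k only 2.43% of tested genes had a larger SD of log2 CPM than the 1.97 of Tgi. Its nearest genes by pattern were E5, toe and Vps2, with Pearson r of 0.998, 0.995 and 0.991 over the 7 libraries among 6569 genes. In the library that held the WT-like level of Tgi, ds38k replicate 4, the fat body markers were at 48.5 CPM and those of the salivary gland at 0.289 CPM, the lowest sums of the 4 ds38k libraries, and the part of this in the level of Tgi was not tested.

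**Figure D2:**
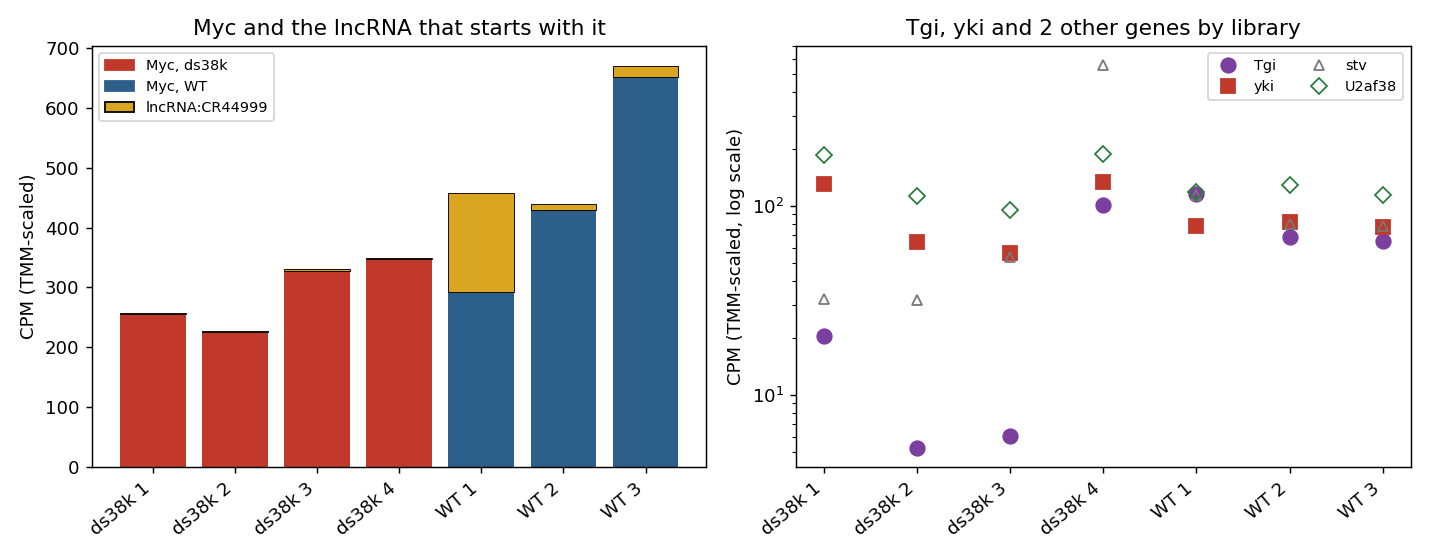
Left, TMM-scaled CPM of Myc with lncRNA:CR44999 stacked on it (linear axis from 0); right, CPM of Tgi, yki, stv and U2af38 on a log axis, in the 4 ds38k libraries and then the 3 WT libraries. The lncRNA holds 165 CPM in WT replicate 1 and 1.79 to 19.1 CPM elsewhere; Tgi and stv are highest among ds38k libraries in replicate 4, and yki and U2af38 in replicates 1 and 4.

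The cofactor gene mask showed the largest log2 fold change of the 8 in TMM-scaled counts over all 7 libraries. With the length trend removed Tgi (-1.46) and Myc (0.84) exceeded it in size, and without ds38k replicate 4 Tgi did. The gene mask (FBgn0043884, at 3R:24230562-24250248, plus strand) had 177, 155, 168 and 161 CPM in ds38k, against 975, 832 and 1022 CPM in WT. The lowest WT library exceeded the highest ds38k library several times over, and the ds38k libraries were close together. The mean was 165 ± 9.41 CPM (SD, n = 4) in ds38k and 943 ± 98.8 CPM (SD, n = 3) in WT, 5.71-fold lower in ds38k, with a log2 ratio of -2.51 ± 0.10 (SE; edgeR adjusted p = 2.98e-06). The transcripts of mask, at 13001 to 14423 bases, are among the longest in the table, and the median log2 fold change of the longest decile of protein-coding genes was -1.60. After removal of the trend mask was still lower, at 275, 270, 250 and 330 length-adjusted CPM in ds38k and 501, 455 and 443 in WT, without overlap (as for 52.8% of tested genes). That difference was 1.66-fold, or -0.73 ± 0.11 on the log2 scale (edgeR adjusted p = 0.00192). The direction held with the longest and with the shortest annotated transcript, at -0.96 and -0.57. The nearest genes by pattern, sli, RpII215 and Tis11, had r of at least 0.999, but 1174 genes had an r over 0.95 with mask, so this likeness singles out little.

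The other cofactor gene, Wbp2 (FBgn0036318; 3L:12850165-12853169, plus strand, 6 transcripts of 1242 to 1758 bases), had 47.8, 51.0, 57.2 and 56.5 CPM in ds38k, against 65.3, 63.7 and 66.3 CPM in WT. The groups did not overlap, and the WT libraries lay within a few CPM of each other. The log2 fold change was -0.29 ± 0.09 (SE; edgeR adjusted p = 0.0203), a 1.23-fold difference. This call was lost with upper-quartile factors, at -0.03 (edgeR adjusted p = 0.769), and when WT replicate 1 or 3 or ds38k replicate 1 or 2 was left out, with adjusted p of 0.0525 to 0.0685. Short genes were on the whole higher in ds38k, with a median of 0.46 in the decile of transcript length to which Wbp2 belongs, and against that trend its fall was clearer, at 43.0, 45.6, 51.4 and 53.4 length-adjusted CPM in ds38k and 73.3, 71.1 and 78.1 in WT. The corrected log2 fold change was -0.62 ± 0.10 (edgeR adjusted p = 0.00237), and it was called without each library in turn, at -0.68 to -0.53. CG32369, snu and Pka-R2 were most like Wbp2, with r of 0.992, 0.981 and 0.979.

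**Figure D3:**
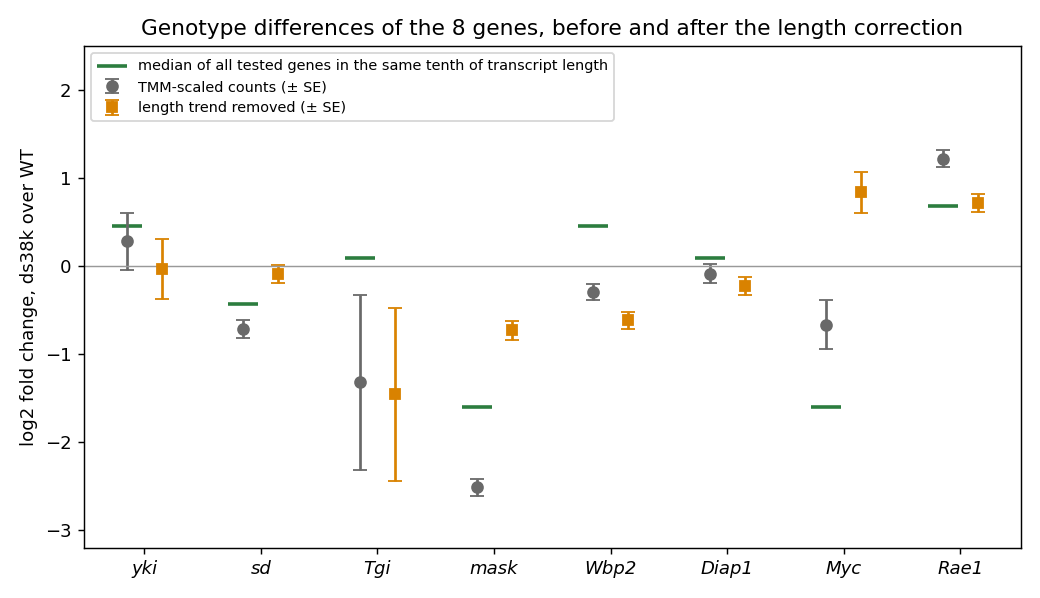
log2 fold changes (ds38k over WT, vertical axis) of the 8 genes from TMM-scaled counts (circles) and with the length trend removed (squares), each ± SE; green bars give the median of tested protein-coding genes in the same decile of transcript length. For mask and Wbp2 both values lie below 0 and for Rae1 both lie above, and for Myc they have opposite signs.

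Among the targets, Diap1 (FBgn0260635; 3L:16038410-16051034, minus strand, 6 transcripts of 1754 to 2304 bases) had 495, 508, 485 and 602 CPM in ds38k, against 594, 565 and 506 CPM in WT. All WT libraries lay within the range of the ds38k libraries. The log2 fold change was -0.09 ± 0.10 (SE; edgeR adjusted p = 0.493), with a 95% interval of -0.33 to 0.16. It was 0.17 (edgeR adjusted p = 0.13) with upper-quartile factors, -0.32 (edgeR adjusted p = 0.0198) with library totals and -0.23 ± 0.10 (edgeR adjusted p = 0.102) with the length trend removed, and in the corrected fit without ds38k replicate 4 it was called, at -0.30 (edgeR adjusted p = 0.0174). The transcripts most like it were those of MTPAP, Ada3 and Fign (r of 0.974, 0.971 and 0.969).

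Myc (FBgn0262656; X:3373159-3391697, plus strand, 2 transcripts of 3484 and 9166 bases) had 255, 225, 328 and 347 CPM in ds38k, against 293, 429 and 651 CPM in WT. The WT libraries were far apart, and the lowest of them, replicate 1, lay within the ds38k range. The log2 fold change was -0.67 ± 0.28 (SE; edgeR adjusted p = 0.0665). It was called without WT replicate 1, at -0.90 (edgeR adjusted p = 0.0171), and without ds38k replicate 4, at -0.77 (edgeR adjusted p = 0.0462). A long noncoding RNA gene, lncRNA:CR44999 (X:3373159-3522787), starts at the first base of Myc on the same strand, and its share of the counts differed between libraries. It held 3864 counts in WT replicate 1, 35.96% of the counts of both genes together, against at most 2.86% in any other library. Whether these are Myc reads assigned to the lncRNA or transcripts of its own was not tested. With both genes added, an alternative chosen after these values were seen, the levels were 257, 227, 331 and 350 CPM in ds38k and 458, 439 and 670 CPM in WT. The groups then no longer overlapped, and the joined log2 value was -0.84 ± 0.21 (edgeR adjusted p = 0.00875), or -0.59 (edgeR adjusted p = 0.03) with upper-quartile factors.

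The direction of Myc turned once length was considered. The length-adjusted levels of Myc alone were 384, 380, 498 and 524 CPM in ds38k and 171, 248 and 331 CPM in WT, without overlap and now higher in ds38k. The corrected log2 fold change was 0.84 ± 0.24 (SE; edgeR adjusted p = 0.0236), and 0.65 ± 0.17 (edgeR adjusted p = 0.0157) with the lncRNA added. That correction used the median of the annotated transcripts, 6325 bases. With the shorter one it gave 0.19 (edgeR adjusted p = 0.546) and with the longer one 0.90 (edgeR adjusted p = 0.0157), and without WT replicate 1 or 2 the adjusted p was 0.0508 and 0.0875. In the decile of longest genes, to which Myc belongs with its median length, the median log2 fold change was -1.60, so the difference of Myc was smaller than was usual for that class. By pattern Myc was nearest to rl, CG5830 and Mkrn1, with r of 0.997, 0.991 and 0.979.

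Rae1 (FBgn0034646; 2R:21658770-21660007, minus strand, 1 transcript of 1189 bases) had 121, 115, 112 and 124 CPM in ds38k, against 53.7, 53.7 and 44.2 CPM in WT. Every ds38k library was above every WT library, with means of 118 ± 5.49 CPM (SD, n = 4) and 50.6 ± 5.49 CPM (SD, n = 3) for ds38k and WT. It was 2.33-fold higher in ds38k, with a log2 ratio of 1.22 ± 0.10 (SE; edgeR adjusted p = 3.93e-05). Genes of like length had a median of 0.68, and after removal of the trend Rae1 stood at 101, 94.5, 93.3 and 117 length-adjusted CPM in ds38k and 65.5, 63.8 and 56.3 in WT. The corrected value was 0.72 ± 0.11 (edgeR adjusted p = 0.00186), and it was called without each library in turn, at 0.63 to 0.80. Its last bases overlap 8 bases of ND-B12, a gene of mitochondrial complex I on the opposite strand, which itself rose by 1.82 ± 0.13 in ds38k; the sources used here do not give whether the counting used strand. The genes most like Rae1 were eIF3e, AnxB9 and RpL4 with r of 0.999, 0.998 and 0.998, among 1414 genes with an r over 0.95.

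**Figure D4:**
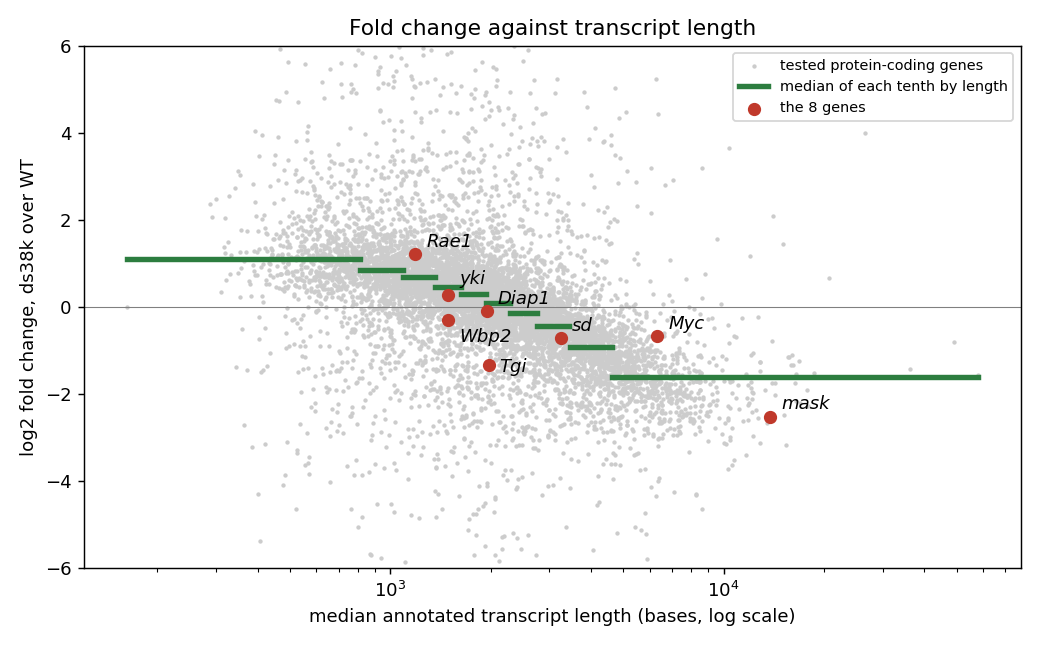
log2 fold change (ds38k over WT) of tested protein-coding genes against median annotated transcript length (log axis), with the median of each decile by length in green and the 8 genes in red; 98 genes beyond 6 log2 units are outside the plot. Medians run from 1.10 in the shortest decile to -1.60 in the longest. Myc and Rae1 lie above the green line, and mask, Tgi, Wbp2, sd, yki and Diap1 lie below it.

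Levels between genes were compared per length, as CPM per kilobase of the median annotated transcript. In ds38k discs Diap1 had the highest level, 269 ± 27.7 CPM per kilobase (SD, n = 4), and it did not overlap the next, sd, at 106 ± 7.74. Then followed Rae1 (99.0 ± 4.62), yki (64.6 ± 28.1), Myc (45.6 ± 9.19), Wbp2 (35.7 ± 3.01), Tgi (16.8 ± 23.2) and mask (12.0 ± 0.681 CPM per kilobase). Apart from the steps after Diap1 and after Rae1, neighbours in this order had overlapping ranges. In WT discs the order was Diap1 (285 ± 23.0 CPM per kilobase; SD, n = 3), sd (174 ± 19.9), Myc (72.4 ± 28.6), mask (68.3 ± 7.16), yki (53.2 ± 1.57), Wbp2 (43.7 ± 0.874), Rae1 (42.5 ± 4.62) and Tgi (42.1 ± 14.5). There Myc and mask, Wbp2 and Rae1, and Rae1 and Tgi overlapped, and the other neighbours did not. The cofactor mask, in the upper part of the WT order, had the lowest mean in ds38k, where Tgi was lower in replicates 1 to 3 and its mean rested on 51.2 CPM per kilobase in replicate 4, and Rae1, near the bottom in WT, ranked beside sd in ds38k. These orders carry the length trend of the libraries, and with the longest transcript as the length sd stood at 57.2 in ds38k, against 94.1 CPM per kilobase in WT. The orders also changed with that length. In ds38k the mean of sd then lay below those of Rae1 (99.0) and yki (63.2). In WT the mean of Myc (49.9) lay below those of mask (65.4) and yki (52.1 CPM per kilobase).

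**Figure D5:**
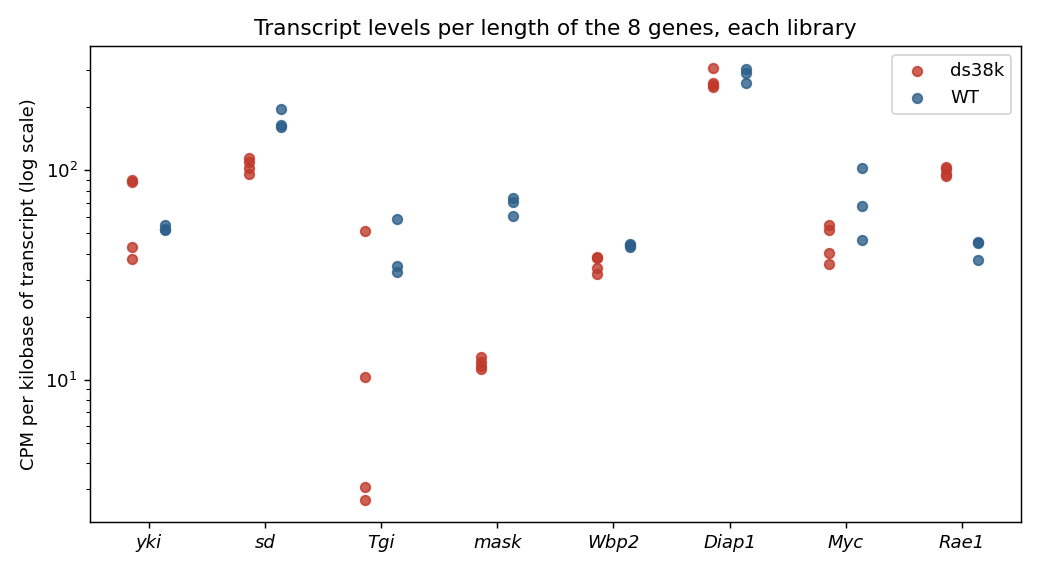
Transcript levels in CPM per kilobase of median annotated transcript (log axis) of the 8 genes, one point per library, with ds38k left of WT. Diap1 is highest in both genotypes, and mask lies at 11.2 to 12.8 in ds38k and at 60.3 to 74.0 in WT.

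The surroundings of the 8 genes were described with 6 gene lists, of which 55 of 75 tested genes were called, against 65.0% of all tested genes. Of the list genes 13 were higher and 42 lower, against 34.2% and 30.8% of all tested genes. Their median log2 fold change was -0.56, against 0.07 for all tested genes. These values carry the length trend, in which the longest decile had a median of -1.60. With the length trend removed 19 list genes were higher and 13 lower, against 27.6% and 19.1% of all tested genes, with a median of -0.01 against 0.06. The lists, like the 8 genes, were chosen with earlier results of these data known, so they were only counted, not tested as sets.

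Of 17 other partners and regulators of Yorkie and Scalloped, 3 rose and 9 fell, or 7 and 3 with the length trend removed. Of all tested genes 34.2% rose and 30.8% fell, or 27.6% and 19.1% with the trend removed. In this list 5 genes rose with upper-quartile factors, and with the shortest transcript the corrected count of rises was 4. The gene trr, which encodes a histone H3 lysine methyltransferase that acts with the Yorkie partner Ncoa6, averaged 7.42 ± 1.70 CPM (SD, n = 4) in ds38k and 145 ± 6.89 CPM (SD, n = 3) in WT. Its log2 fold change was -4.29 ± 0.18 (SE; edgeR adjusted p = 3.7e-06), or -2.64 ± 0.19 corrected. Ncoa6 itself was at -1.45 ± 0.11 before and 0.28 ± 0.09 after the correction, and Hipk, a kinase that promotes Yorkie activity, stood at -1.81 ± 0.13 and -0.34 ± 0.11. The value of tsh, a zinc finger partner of Yorkie, was -1.32 ± 0.09 and was no longer called after correction (-0.13 ± 0.07, edgeR adjusted p = 0.157). Among genes picked after their values were seen, osa, a subunit of the Brahma chromatin remodelling complex, fell, at -3.73 ± 0.34, or -1.97 ± 0.36 with the correction. The genes of the 14-3-3 proteins, which hold phosphorylated Yorkie in the cytoplasm, rose in both fits, 14-3-3epsilon by 0.47 ± 0.08 and 0.42 ± 0.09, and 14-3-3zeta by 0.43 ± 0.12 and 0.88 ± 0.11.

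Of 16 other tested genes reported as Yorkie targets, 11 fell and 0 rose before the correction, and 4 fell and 1 rose after it. Over all tested genes 30.8% fell and 34.2% rose before it, and 19.1% fell and 27.6% rose after it. With upper-quartile factors 9 of these targets fell and 2 rose. The microRNA gene ban was listed with no counts in any library and could not be tested. Those that fell in both fits were ex, dally, kibra and vn, of which vn, a ligand gene of the EGF receptor picked after its value was seen, had 45.8 ± 21.9 CPM (SD, n = 4) in ds38k and 214 ± 21.3 CPM (SD, n = 3) in WT. Its log2 fold change was -2.22 ± 0.35, or -1.09 ± 0.31 corrected (edgeR adjusted p = 0.0239). The apical determinant gene crb was called only without the correction, at -1.89 ± 0.09 against -0.27 ± 0.11. The single rise was that of Mer, at 0.15 ± 0.09 (edgeR adjusted p = 0.186) before and 0.60 ± 0.12 after correction. Without WT replicate 3 the corrected count of rises was 3.

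In the list of 10 Hippo kinase genes and regulators 1 rose and 7 fell, or 2 and 2 after correction, and 2 rose and 2 fell with upper-quartile factors. The shares of all tested genes were 34.2% higher and 30.8% lower, or 27.6% and 19.1% after correction. The 7 falls were not reached in any fit with 1 library left out. The count was 4 without ds38k replicate 2 or 3 and 5 without any other library. After correction the count of falls was 1 without WT replicate 2 or 3 or ds38k replicate 1 or 2. The count of rises was 2 without WT replicate 1. The gene of the kinase Tao, which activates Hippo, had 85.5 ± 72.2 CPM (SD, n = 4) in ds38k and 495 ± 36.4 CPM (SD, n = 3) in WT, at a log2 fold change of -2.53 ± 0.54, or -2.25 ± 0.51 corrected. The values of wts (-1.46 ± 0.11), hpo (-0.43 ± 0.07) and mats (0.55 ± 0.07) were not called after correction. Strip, a subunit of the STRIPAK phosphatase complex picked after its values were seen, was called in opposite directions, at -0.18 ± 0.07 and 0.62 ± 0.09.

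Of 9 tested genes that act with Diap1 in cell death, 3 rose and 2 fell, or 4 and 2 after correction. Beside these counts stand 34.2% higher and 30.8% lower of all tested genes, or 27.6% and 19.1% after correction. With library totals 1 gene of this list rose and 3 fell. The corrected count of rises was 1 without WT replicate 1 or 3, and 2 without WT replicate 2, where 1 fell, or with the longest transcript as the length. The caspase gene Dronc, whose product Diap1 holds inactive, had 99.3 ± 6.70 CPM (SD, n = 4) in ds38k and 55.9 ± 2.11 CPM (SD, n = 3) in WT, a log2 difference of 0.83 ± 0.08 (SE; edgeR adjusted p = 1.1e-04), or 0.71 ± 0.08 corrected. The effector caspase gene Dcp-1 rose by 0.51 ± 0.10 and 0.30 ± 0.09. Dark, the Apaf-1 homologue that activates Dronc, was called in opposite directions, at -0.89 ± 0.09 before and 0.34 ± 0.08 after correction, and Bruce, a very large BIR-domain gene, stood at -3.16 ± 0.17 and -1.41 ± 0.10. The Diap1 antagonist rpr had 13.9 ± 9.00 CPM (SD, n = 4) in ds38k and 6.46 ± 0.756 CPM (SD, n = 3) in WT, which did not pass (edgeR adjusted p = 0.0615), and hid was at -0.76 ± 0.43 (edgeR adjusted p = 0.152). The genes grim and skl had 0 and 5 counts in all libraries together and were not tested.

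Of 16 partners, regulators and growth targets of Myc, 5 rose and 7 fell, and after correction 4 rose and 0 fell. All tested genes had 34.2% higher and 30.8% lower, and after correction 27.6% and 19.1%, so the 4 corrected rises lay close to that share. In this list the corrected count of rises was 8 with the longest transcript. That of falls was 2 with the shortest or without ds38k replicate 4, and 1 without ds38k replicate 1. The rises included the nucleolar gene nop5, at 425 ± 27.4 CPM (SD, n = 4) in ds38k and 158 ± 12.5 CPM (SD, n = 3) in WT, with 1.43 ± 0.09, or 1.24 ± 0.09 corrected, and pont, an ATPase cofactor of Myc, at 1.11 ± 0.08 and 0.86 ± 0.08. RpI1, the largest subunit of RNA polymerase I, was at -1.27 ± 0.08 before and 0.00074 ± 0.067 after correction. The F-box gene ago, whose product marks Myc for degradation, was at -1.17 ± 0.08 and 0.14 ± 0.09 (edgeR adjusted p = 0.205). The partner gene Max rose by 0.88 ± 0.11 before the correction only (0.24 ± 0.11 after it, edgeR adjusted p = 0.113).

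Of 7 partners of Rae1, 1 rose and 6 fell, or 1 and 2 after correction, where all tested genes had 34.2% and 30.8%, or 27.6% and 19.1%. Rae1 binds Nup98 at the nuclear pore; Nup98-96 had 108 ± 8.40 CPM (SD, n = 4) in ds38k and 293 ± 12.3 CPM (SD, n = 3) in WT, at -1.44 ± 0.08, or 0.05 ± 0.08 corrected (edgeR adjusted p = 0.649). Nup153 fell in both fits, at -2.28 ± 0.09 and -0.64 ± 0.07, and Nup214 was at -1.25 ± 0.07 and 0.07 ± 0.10. The ubiquitin ligase gene hiw, at under 4 CPM on average in either genotype, was at -2.15 ± 0.25 and -0.40 ± 0.28. The gene that rose in both was mbo, which encodes Nup88, at 0.24 ± 0.07 and 0.44 ± 0.07, while with library totals 0 genes of this list rose.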

How the data were processed

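Expected counts per gene and library were deposited by the authors without scaling; the tools named, per the submitters' processing notes, were FastQC 0.10, Trimmomatic 0.33, Salmon 1.80 (as written there) and edgeR, with genome dm6, and the sources used here give neither annotation release nor strandedness. Salmon divides reads of overlapping or near-identical genes by a model. The counts were rounded. Analysis used R 4.3.3, edgeR 4.0.16, limma 3.58.1, DESeq2 1.42.0 and, for figures, Python 3.11.15 with matplotlib 3.10.9. Genes were kept by filterByExpr (minimum count 10), scaled by TMM and tested over all 7 libraries by the quasi-likelihood F-test in edgeR, with genotype as the term and Benjamini-Hochberg adjustment over all tested genes at 0.05. The approximate SE is log2 fold change over root F. For the correction, the deviation of log2 CPM (prior count 2) from the gene mean was fitted in each library on log2 median transcript length with a natural spline (5 df) and used as an offset; it also removes real change that runs with length. It left 9224 genes. Lengths and coordinates came from Ensembl BDGP6.54 (dm6 coordinates), which held 17083 of 17208 identifiers. Replicates differed beyond sampling noise (chi-square per degree of freedom 37.4 to 240). The procedure was tested on simulated data with set fold changes, without and with a linear trend on log2 length. Far fewer genes changed there than were called here, so its accuracy on these data was not tested. No table column was left over. The 8 genes and all lists were chosen with earlier results of these data known. Named genes are the 8 and ds, up to 4 per list with the smallest p, and the 3 genes with the highest r of log2 CPM among those of at least 10 CPM; others were picked after their values were seen. Levels per kilobase are descriptions. Marker sums use the total count. No sequence was used here.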

Additional observations from a re-analysis of the deposited data

Results flagged for a closer look

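Among 35 sets of 4 ds38k values examined for a library far from the other 3, 7 stood out by Dixon's 95% criterion for the gap over the range, a criterion that flags about 1 in 20 groups by chance. The 7 were not independent, since 6 concern ds38k replicate 4, Tgi is counted on both scales and stv was picked after its values were seen, so their number is not read against that rate. Tgi was one of them, at 101 CPM in ds38k replicate 4, or 96.6 length-adjusted CPM. The same replicate had 353 length-adjusted CPM of sd, the lowest of the ds38k libraries. It also had 556 CPM of stv, a co-chaperone gene that lies near Tgi. In that library 1018 genes lay over 3-fold from the mean of the others, and its mean correlation with them was 0.926. The salivary gland markers summed to 1109 CPM in ds38k replicate 1, against 0.289 to 86.7 CPM in the other ds38k libraries.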

How the results depend on the processing

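The calls of mask and Rae1 kept their direction and their side of the threshold under every alternative run, as did the fall of ds. For Tgi DESeq2 gave no adjusted p. Myc was called with DESeq2 (-0.72), library totals (-0.89) and the lncRNA added (-0.84); Diap1 was at -0.32 with library totals and 0.17 with upper-quartile factors, where Wbp2 was at -0.0315. Removal of the length trend gave 32 called list genes in place of 55, and put yki at -0.0348, sd at -0.0917 and Myc at 0.84; with the longest transcript sd was at 0.59, and with the shortest sd was at -0.38 and Myc at 0.19. With the longest transcript, levels per kilobase were 57.2 in ds38k and 94.1 in WT for sd, 30.2 and 37.0 for Wbp2, 227 and 241 for Diap1, and 31.5 in ds38k for Myc. Without each replicate in turn, the log2 fold change was -2.97 to -0.95 for Tgi, -0.90 to -0.33 for Myc and -0.32 to -0.23 for Wbp2; with the length trend removed it was -3.09 to -1.09 for Tgi, 0.60 to 1.06 for Myc, -0.27 to 0.18 for yki and -0.30 to -0.15 for Diap1. The causes were not tested, apart from the transcript length and the library left out that define an alternative. One fit used the replicate number as a replicate block, in which ds38k replicate 4 has no partner and adds nothing. It called 6570 genes, against 6042 in the main fit. The block put Tgi at -3.18, Myc at -0.71 and yki at -0.0289, and with the length trend removed Tgi at -3.31 and Diap1 at -0.30. Tgi, Myc and, with that removal, Diap1 thus became calls (edgeR adjusted p of 3.5e-04 and 0.0165, and 7.6e-04 and 0.0187 with the removal for Tgi and Diap1). The fit without ds38k replicate 4 and without a block also made these calls, among 6531 genes called. There Tgi was at -2.97 and Myc at -0.77, and with the removal Tgi was at -3.09 and Diap1 at -0.30. These new calls are therefore not particular to the block. Same-numbered libraries correlated by 0.142, 0.043 and 0.13 in their deviations (without ds38k replicate 4), each higher than with any other number. Paired libraries would give that order, but the labels do not pair them and the values were small. Same-numbered libraries were not treated as pairs in the main fit, and whether they are pairs is not settled.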

Other observations

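Genes beside the members, picked after their values were seen, had these levels. Around Tgi, stv had 31.97, 31.7, 53.6 and 556 CPM in ds38k replicates 1 to 4 and 114, 80.4 and 77.9 CPM in WT, whereas Abp1, between stv and Tgi, had 100.03 to 109 CPM in ds38k and 121 to 133 CPM in WT. Spt20, on the other side of Tgi, had 17.3 to 22.6 CPM in ds38k and 99.0 to 145 CPM in WT, with no rise in replicate 4 beyond 22.6 CPM. Beside yki, neither Rap2l (46.9 to 51.4 CPM in ds38k and 15.5 to 23.3 CPM in WT) nor Gpat4, listed as CG3209 (88.9 to 98.2 and 58.6 to 67.1 CPM), showed the split of replicates seen in yki.

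Over the 7 libraries, the log2 CPM of yki and of sd had a Pearson r of -0.29, yki and Diap1 of 0.39, Tgi and Diap1 of 0.79, and mask and Rae1 of -0.99; these describe libraries that share genotype, depth and composition.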
